A study of Homo sapiens with 82 samples.

Results

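HT29, a human colorectal adenocarcinoma cell line, was sequenced after 24 h and after 48 h with GW3965, a synthetic agonist of the liver X receptors (LXRs), and the change between these times under the drug is described here. The 4 libraries labelled GW3965 at 48 h were set against the 4 labelled GW3965 at 24 h, which makes 8 of the 32 RNA libraries and of the 82 samples listed for the series. Cells grew in medium with charcoal-stripped serum, and GW3965, the second LXR agonist T0901317 and the PPARG agonist rosiglitazone were each given at 10 μM in DMSO, with DMSO alone as the vehicle control. Every group was 1 cell line without genetic change, and each drug and the vehicle had 4 libraries at each time. The 4 libraries of a group were described as quadruplicates, and whether they came from separate cultures was not stated, so p-values measure the spread between these libraries, which may be technical. The 24 h and 48 h libraries lie in separate count tables, so that the time of treatment and any difference between the tables cannot be told apart. The change from 24 h to 48 h in DMSO, measured across the same pair of tables, is therefore given beside the GW3965 results as the reference for time.

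LXRα (encoded by NR1H3) and LXRβ (NR1H2) are nuclear receptors that bind DNA as heterodimers with the retinoid X receptors and are activated by oxidised derivatives of cholesterol. Their best known targets move cholesterol out of the cell and switch on fatty acid synthesis, and in the intestine they limit the uptake of sterols.

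The GW3965 libraries held 36791401 to 51332656 counts at 24 h and 36537256 to 50938082 at 48 h, over 51838 listed genes, of which 23140 passed the filter on low counts. The 11 colorectal epithelial markers were all detected, with a summed level of 20575 to 20857 counts per 1000000 counts of the library (CPM) at 24 h and 17619 to 18353 CPM at 48 h with GW3965. In DMSO the same sum was 18578 to 20075 CPM at 24 h and 18305 to 19443 CPM at 48 h. KRT8 and KRT18 made up most of the sum, and with GW3965 their means went from 9989 to 7926 CPM and from 7506 to 6482 CPM. The means of CDH1, CDX2, VIL1 and LGALS4 rose with GW3965, that of LGALS4 from 740 to 1171 CPM, and those of the other members fell. The 4 fibroblast markers summed to 4.24 to 8.26 CPM at 24 h and 8.85 to 9.89 CPM at 48 h with GW3965. The 4 leukocyte markers summed to 13.6 to 14.6 CPM and 14.2 to 18.7 CPM. Most of this was CD68, with means of 12.1 CPM and 13.45 CPM, and CD3E had no read in either group. Genes of the mitochondrial genome took 2.23% to 3.06% of counts at 24 h and 2.80% to 3.27% at 48 h with GW3965. In DMSO they took 2.57% to 3.04% at 24 h and 1.85% to 2.74% at 48 h. GW3965 24 h replicate 1 stood a little apart, since its highest correlation with another library, across genes, was 0.990 and that of replicates 2 to 4 of the group lay between 0.995 and 0.997. Leaving it out moved no count of list members that passed with GW3965 by more than 3, and counts that this moved by over 1.5 times, and genes that then no longer passed, are also given without it.

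With GW3965, 862 genes were at least 2-fold higher at 48 h than at 24 h and 225 were at least 2-fold lower at an adjusted p under 0.01, here termed called (edgeR quasi-likelihood test, Benjamini-Hochberg adjustment over all genes tested). These are 3.73% and 0.972% of the genes tested. Without the requirement on size, 3747 genes (16.2%) were higher and 3523 (15.2%) were lower, and a gene that met the adjusted p alone is said below to have passed the test. The median log2 change over all genes was 0.01. In DMSO 1177 genes (5.09%) were called higher and 797 (3.44%) lower, and 19.7% and 18.9% of the genes passed the test in these directions. The genes called higher under both treatments numbered 277, which is 32.1% of those of GW3965 and 23.5% of those of DMSO, and 3 genes called higher with GW3965 were called lower with DMSO. The genes called lower under both numbered 83, or 36.9% of those of GW3965 and 10.4% of those of DMSO. Across the genes tested, which are not independent replicates, the time changes with GW3965 and with DMSO were correlated at 0.470 (Pearson's r) and 0.480 (Spearman's rho). In these bulk samples, fewer cells of a kind and less RNA per cell cannot be told apart.

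**Figure D1:**
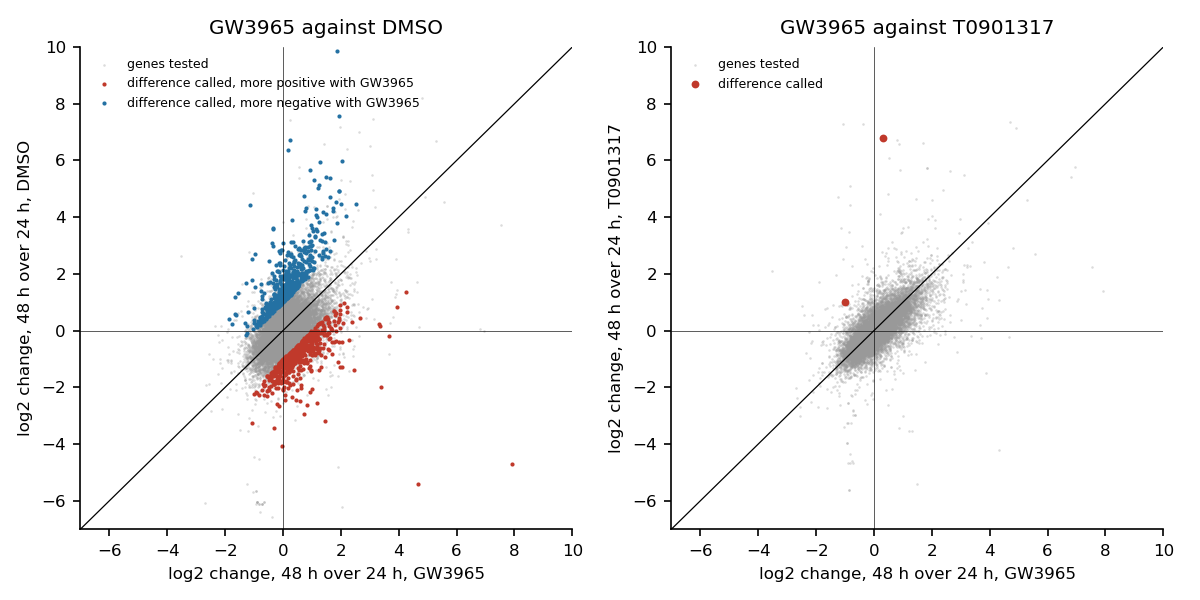
Log2 change from 24 h to 48 h of each of the 23140 genes tested with GW3965 (horizontal axes) against DMSO (left) and T0901317 (right), with the line of equal change. Coloured points are genes whose 2 changes differed at least 2-fold at an adjusted p under 0.01, 538 and 549 against DMSO and 2 against T0901317, and fitted changes of genes near 0 counts depend on the prior count.

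Genes of known name with a mean log2 CPM of at least 1 over the 8 GW3965 libraries and GW3965 groups that did not overlap are here termed well measured. The term sets no limit on the DMSO libraries, so a difference from DMSO may rest on low DMSO counts. The 10 largest increases among the well measured genes were those of SSPOP, SERPINA5, INPP5J, CYP2B6, LRRC31, DHRS3, NDRG1, STRA6, PDIA2 and PRRT2, with log2 changes from 2.56 down to 2.06. Of all genes tested, 38.6% had GW3965 groups that did not overlap. DHRS3, a reductase that returns retinal to retinol, had 9.67, 10.9, 12.3 and 15.3 CPM at 24 h and 54.2, 50.3, 56.8 and 52.7 CPM at 48 h, a log2 change of 2.15 (SE 0.10). STRA6, the membrane receptor that takes up retinol, had 1.68, 1.42, 1.95 and 2.57 CPM at 24 h and 8.04, 9.05, 7.83 and 7.99 CPM at 48 h. Both of these retinoid genes also rose in DMSO, by log2 changes of 2.23 and 2.29, and their difference between the treatments did not pass the test (adjusted p = 0.692 and 0.556, edgeR). NDRG1, a gene induced by hypoxia and by differentiation, had 14.4, 17.1, 17.7 and 18.2 CPM at 24 h and 61.9, 71.2, 85.1 and 71.2 CPM at 48 h, and rose by a log2 change of 2.10 with GW3965 and of 1.26 with DMSO. PDIA2, a protein disulfide isomerase of the endoplasmic reticulum, had 7.59, 11.2, 12.2 and 14.5 CPM at 24 h and 50.7, 44.7, 46.4 and 47.9 CPM at 48 h with GW3965. Its log2 change was 2.06 (SE 0.16) with GW3965 and 0.28 (SE 0.18, adjusted p = 0.199, edgeR) with DMSO, and these differed by 1.78 (SE 0.24, adjusted p = 5.97e-07). CYP2B6, a xenobiotic-metabolising cytochrome P450 with a near-identical pseudogene that could share its reads, rose by a log2 change of 2.19 with GW3965 and of 3.07 with DMSO. SERPINA5 (protein C inhibitor), with a log2 change of 2.46, INPP5J (a phosphoinositide 5-phosphatase), with 2.26, LRRC31, with 2.17, and PRRT2, with 2.06, rose from group means of at most 3.15 CPM at 24 h. In DMSO the log2 changes of SERPINA5, INPP5J, LRRC31 and PRRT2 were 1.46, 2.76, 4.04 and 1.33.

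The largest decreases included those of AXL, ANO3, CAV1, DDX60, DLEU2, FJX1, SNORA80B, LYAR and CENPW, with log2 changes from -1.88 to -1.25. CAV1, which encodes the coat protein of caveolae, had 28.1, 24.1, 22.4 and 21.2 CPM at 24 h and 6.29, 6.86, 7.18 and 7.19 CPM at 48 h, a log2 change of -1.80 (SE 0.11). AXL, a receptor tyrosine kinase, had 12.2, 14.9, 17.5 and 16.8 CPM at 24 h and 5.42, 3.12, 4.35 and 3.65 CPM at 48 h, a log2 change of -1.88 (SE 0.20). Groups that did not overlap were a condition for naming both genes. Both also fell in DMSO, by log2 changes of -1.16 for CAV1 and -1.04 for AXL. DDX60, an interferon-inducible RNA helicase, had 4.13, 4.32, 3.01 and 3.56 CPM at 24 h and 1.35, 0.976, 1.31 and 0.819 CPM at 48 h with GW3965. Its log2 change of -1.75 (SE 0.23) stood beside 0.22 (SE 0.21, adjusted p = 0.405, edgeR) in DMSO, a difference of -1.97 (adjusted p = 8.55e-06). SNORA80B (log2 change -1.28) is a small nucleolar RNA that lies inside another gene, with which it could share reads. CENPW, a centromere protein, had a log2 change of -1.25 with GW3965 and of -1.02 with DMSO. LYAR (log2 change -1.26), a nucleolar protein, is described below with ribosome biogenesis.

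Of the 14 direct LXR targets and sterol efflux genes tested, 7 rose from 24 h to 48 h of GW3965 and 2 fell, and in DMSO 5 rose and 4 fell. The shares of all genes against which this count and the list counts below are read are 16.2% higher and 15.2% lower with GW3965, and 19.7% and 18.9% in DMSO. For the difference between the treatments they are 9.96% more positive and 11.7% more negative with GW3965. ABCA1, the transporter that loads cholesterol onto apolipoprotein A-I, had 107, 119, 124 and 107 CPM at 24 h and 134, 121, 141 and 123 CPM at 48 h. These groups overlapped, and the log2 change of 0.19 (SE 0.09) did not pass the test (adjusted p = 0.0826, edgeR). In DMSO ABCA1 had 4.35 to 4.93 CPM at 24 h and 1.83 to 3.17 CPM at 48 h, a log2 change of -0.98 (SE 0.13), so that the 2 time changes differed by 1.16 (adjusted p = 7.65e-07). ABCG1, which exports cholesterol to high-density lipoprotein, had 160, 187, 189 and 177 CPM at 24 h and 229, 229, 264 and 246 CPM at 48 h, a log2 change of 0.44 (SE 0.10, adjusted p = 0.00075). Its rise in DMSO was larger, from 6.44 to 7.88 CPM at 24 h to 21.1 to 24.1 CPM at 48 h, with a difference of the log2 changes of -1.29 (adjusted p = 1.3e-07). In DMSO ABCA1 thus fell, by just under 2-fold, and ABCG1 rose, both at levels far below those with GW3965. With GW3965 neither change reached 2-fold.

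The largest rise of the group was that of PLTP, the phospholipid transfer protein of plasma lipoproteins. It had 5.01, 5.66, 7.15 and 8.86 CPM at 24 h and 17.9, 17.7, 22.2 and 19.1 CPM at 48 h, without overlap, and its log2 change of 1.52 (SE 0.13) exceeded that in DMSO, 0.47, by 1.06 (adjusted p = 7.92e-05, edgeR). ABCC3, an exporter of conjugated bile acids, rose by a log2 change of 0.72 with GW3965 and of 0.58 with DMSO. MYLIP, the ubiquitin ligase that degrades the low-density lipoprotein receptor, had 21.8 to 23.6 CPM at 24 h and 24.4 to 26.6 CPM at 48 h and did not pass the test (adjusted p = 0.128), and its log2 change in DMSO was -0.13. The median log2 change of the 14 tested was 0.24 with GW3965 and 0.24 with DMSO, and 4 of the differences between the treatments were more positive with GW3965 and 2 more negative.

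The 250 bases before the start of ABCA1 are shown because they hold the one LXR element found in the promoters of this list. The element is a direct repeat with a spacer of 4 bases, and it was searched on both strands as AGGTNA, any 4 bases, then NGGTNA. It was found in 59 of the 27305 promoters of the RefSeq table (0.216%) and in 1 of the 10 promoters of the list that the table holds. The match is in capitals, on the opposite strand, and begins 69 bases before the start. The region is chr9:104928156-104928405 on the minus strand of GRCh38.p14.
ABCA1: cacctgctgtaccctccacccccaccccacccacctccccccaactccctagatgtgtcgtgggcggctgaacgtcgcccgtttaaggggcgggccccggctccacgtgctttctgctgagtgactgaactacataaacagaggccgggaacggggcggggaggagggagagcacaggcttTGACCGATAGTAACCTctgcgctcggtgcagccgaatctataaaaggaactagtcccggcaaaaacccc

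Of the LXRs and their RXR partners, NR1H3 and RXRB rose and NR1H2 and RXRA did not pass the test. NR1H3, which LXR agonists induce in several human cell types, had 142, 148, 166 and 167 CPM at 24 h and 227, 238, 254 and 226 CPM at 48 h, a log2 change of 0.60 (SE 0.07), against 0.06 in DMSO (difference 0.55, adjusted p = 7.23e-05, edgeR). NR1H2 had 47.0 to 54.4 CPM at 24 h and 51.3 to 54.6 CPM at 48 h with GW3965, and in DMSO it rose by a log2 change of 0.41. RXRA, the main heterodimer partner in epithelia, ran from 201 CPM in replicate 1 to 340 CPM in replicate 3 at 24 h and from 265 to 287 CPM at 48 h. RXRB rose from 38.2 to 44.6 CPM at 24 h to 53.3 to 59.7 CPM at 48 h, a log2 change of 0.45 with GW3965 beside 0.48 in DMSO. PPARD, a fatty acid receptor that also pairs with RXR, rose by a log2 change of 0.33 with GW3965 and of 1.10 with DMSO, and no longer passed with GW3965 without 24 h replicate 1 or 2 or without any one of the 48 h libraries. In all, 5 of the 22 receptors, corepressors and coactivators tested rose, 3 fell and 14 did neither with GW3965, shares close to those over all genes, where in DMSO 13 rose and 5 fell. Without GW3965 24 h replicate 1 the numbers with GW3965 were 3 and 4. Of the 22 differences between the treatments, 11 were more negative with GW3965 and 3 more positive, with a median of -0.30. PPARGC1B, a coactivator of mitochondrial and lipid genes, fell by 0.46 on the log2 scale with GW3965 and by 1.44 with DMSO (adjusted p of the difference = 1.89e-05).

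**Figure D2:**
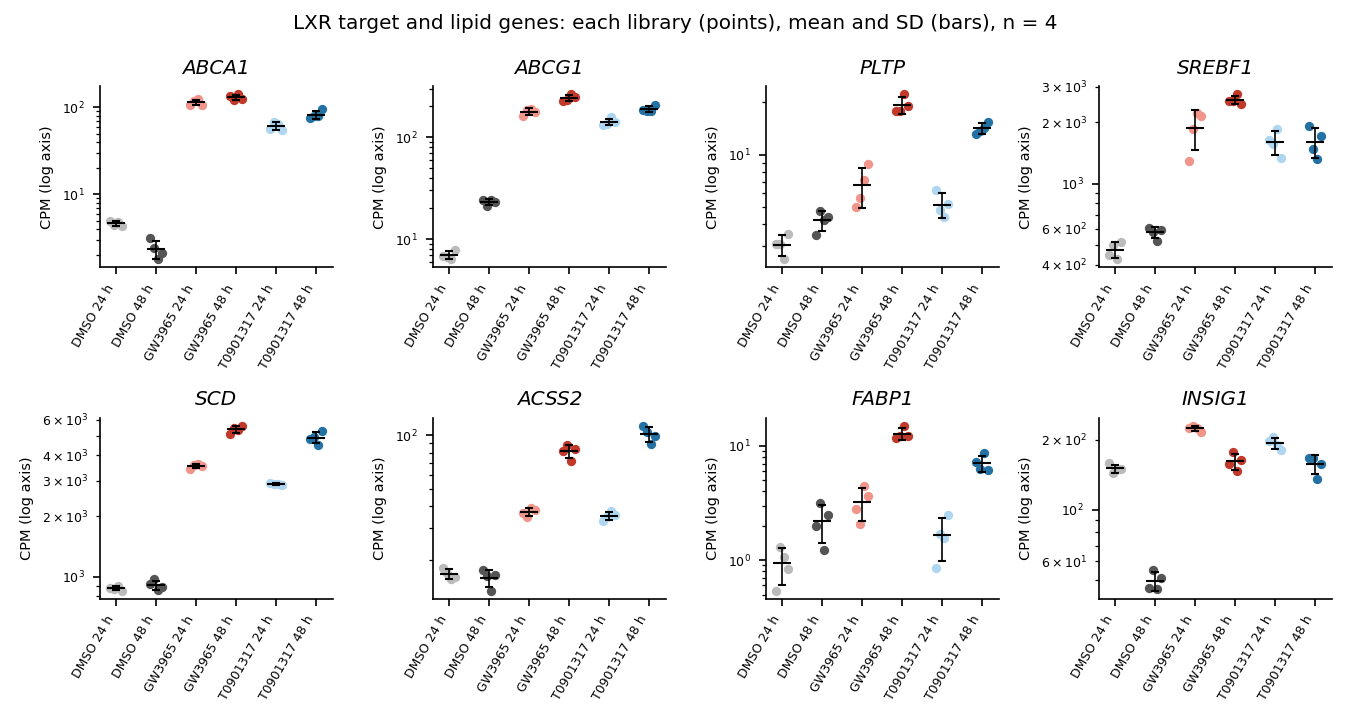
CPM on a log axis in each library (points), with mean and SD of 4, for 8 LXR target and lipid genes in DMSO, GW3965 and T0901317 at 24 h and 48 h. ABCA1 runs from 107 to 124 CPM at 24 h and from 121 to 141 CPM at 48 h with GW3965, and SCD from 3425 to 3620 CPM and from 5122 to 5616 CPM.

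Among genes of fatty acid synthesis, which LXR drives through the transcription factor SREBP-1c, 10 of the 27 tested rose with GW3965 and 2 fell. In DMSO 6 rose and 8 fell, and 12 of the differences were more positive with GW3965 and 2 more negative. SCD, the desaturase that makes oleate, had 3425, 3566, 3620 and 3541 CPM at 24 h and 5122, 5502, 5375 and 5616 CPM at 48 h, a log2 change of 0.61 (SE 0.05). In DMSO SCD ran from 852 to 903 CPM at 24 h and from 854 to 970 CPM at 48 h, so that the difference of the log2 changes was 0.56 (adjusted p = 8.42e-08, edgeR). ACSS2, which makes acetyl-CoA from acetate, had 36.7, 34.7, 39.2 and 37.9 CPM at 24 h and 81.5, 88.7, 72.1 and 83.4 CPM at 48 h. Its log2 change was 1.13 (SE 0.10) with GW3965 and -0.07 with DMSO, a difference of 1.20 (adjusted p = 1.18e-07). ACACB, the acetyl-CoA carboxylase at the outer membrane of mitochondria, rose by a log2 change of 1.31 (SE 0.17), with 0.55 in DMSO. ELOVL6, which elongates palmitate, fell by 0.33 on the log2 scale, from 56.0 to 67.0 CPM at 24 h to 41.5 to 51.2 CPM at 48 h, and fell by 1.06 in DMSO.

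SREBF1, which encodes SREBP-1, had 1294, 1862, 2217 and 2145 CPM at 24 h and 2552, 2553, 2750 and 2454 CPM at 48 h with GW3965. The groups did not overlap, but replicate 1 at 24 h was well below the other libraries of that group. The log2 change of SREBF1 was 0.46 (SE 0.12, adjusted p = 0.00287, edgeR), with 0.28 in DMSO (adjusted p = 0.0547), and without that library it was 0.31 and no longer passed the test (adjusted p = 0.02). SREBF1 also no longer passed when 24 h replicate 2 or 48 h replicate 3 was left out, or when only the GW3965 libraries were fitted.

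Genes of cholesterol synthesis and uptake, which SREBP-2 controls and which sense the sterol content of the cell, fell in 7 of 26 cases with GW3965 and in 17 with DMSO, and 1 gene rose under each. Of the differences, 14 were more positive with GW3965 and 2 more negative, or 15 and 1 without GW3965 24 h replicate 1. INSIG1, which holds the SREBPs in the endoplasmic reticulum, had 226, 230, 225 and 217 CPM at 24 h and 157, 178, 147 and 164 CPM at 48 h, a log2 change of -0.48 (SE 0.09). In DMSO it went from 144 to 158 CPM at 24 h to 45.4 to 54.8 CPM at 48 h, a log2 change of -1.61 (SE 0.09), and the 2 changes differed by 1.14 (adjusted p = 2.21e-08, edgeR). The member that rose with GW3965 was TM7SF2, a sterol reductase, from 112, 121, 146 and 153 CPM at 24 h to 216, 242, 221 and 243 CPM at 48 h. The log2 change of TM7SF2 was 0.79 with GW3965 and 0.04 in DMSO.

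Fatty acid oxidation, lipid droplet and PPAR target genes rose in 16 of 24 cases with GW3965 and none fell, against 10 that rose and 4 that fell in DMSO. Without GW3965 24 h replicate 1, 13 rose. Of the 24 differences between the treatments, 6 were more positive with GW3965, 1 was more negative and 17 did not pass, with a median of 0.05. FABP1, the fatty acid binding protein of liver and small intestine, had 2.82, 2.05, 4.41 and 3.62 CPM at 24 h and 11.7, 12.3, 15 and 12.2 CPM at 48 h, a log2 change of 1.98 (SE 0.21), and also rose in DMSO by 1.24. PDK4, a kinase that turns off pyruvate dehydrogenase, rose by a log2 change of 0.75, from 12.3 to 13.5 CPM at 24 h to 18.9 to 23.0 CPM at 48 h, with -0.07 in DMSO (adjusted p of the difference = 9.2e-05). ANGPTL4, a secreted inhibitor of lipoprotein lipase, had the largest positive difference from DMSO among the called, well measured genes. It had 0.984, 1.45, 1.82 and 1.49 CPM at 24 h and 3.63, 3.14, 3.56 and 3.82 CPM at 48 h with GW3965, and 0.192 to 0.903 CPM and 0.148 to 0.323 CPM in DMSO, a difference of 2.59 (SE 0.55, adjusted p = 0.000408).

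**Figure D3:**
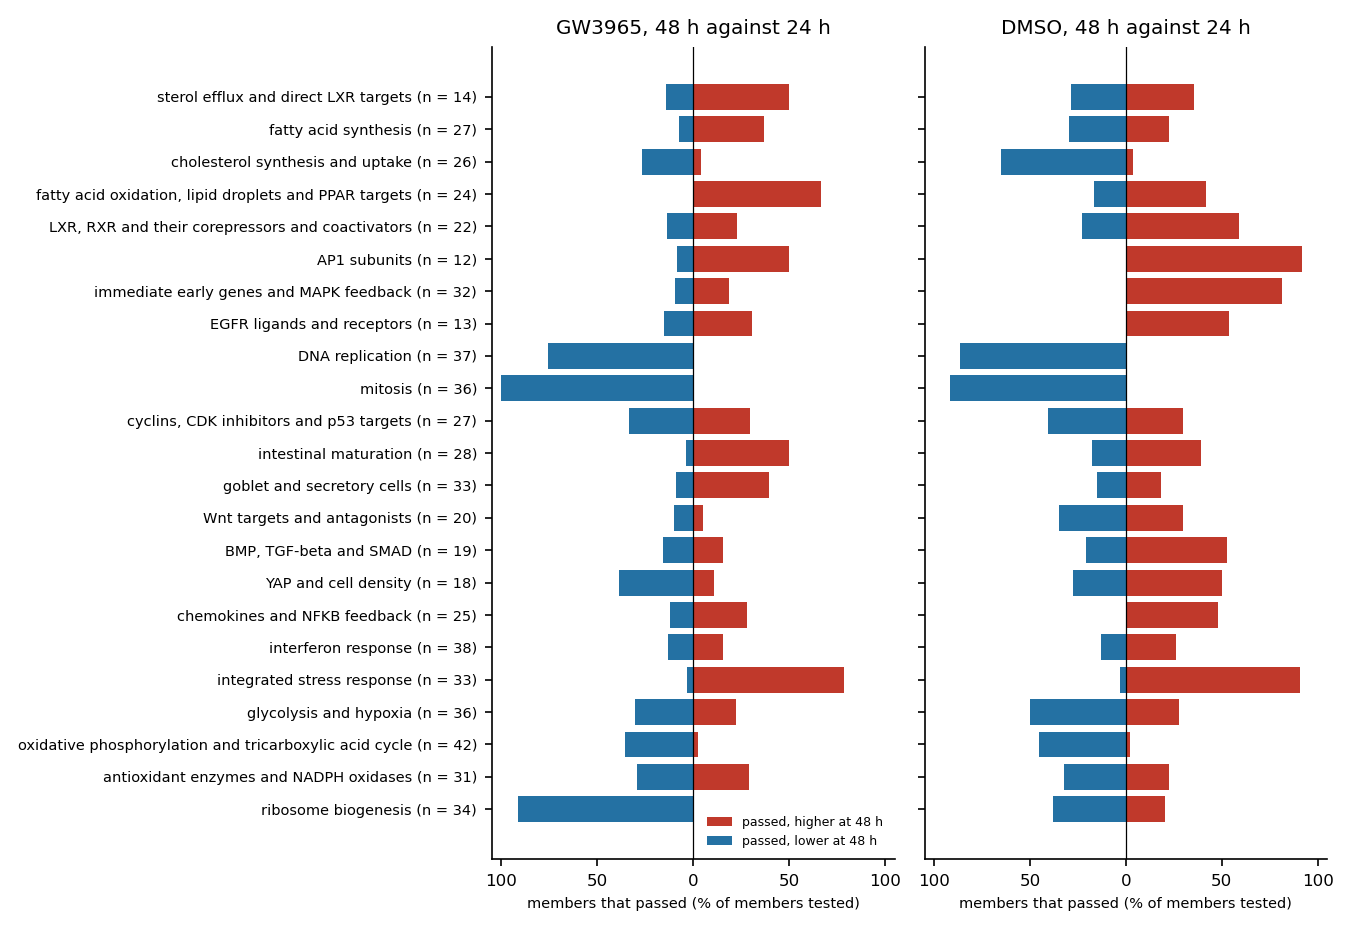
Share of the tested members of each gene list that passed the test (adjusted p under 0.01, edgeR) as higher (right) or lower (left) at 48 h than at 24 h, with GW3965 and with DMSO, in percent of the members tested (n beside each name). With GW3965 all 36 mitosis genes, 31 of 34 ribosome biogenesis genes and 28 of 37 DNA replication genes are on the lower side, and 26 of 33 integrated stress response genes on the higher side.

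Genes of cell division were lower at 48 h. All 36 mitosis genes tested fell with GW3965, with a median log2 change of -0.85, and 33 fell in DMSO, with a median of -0.61. The background is that 15.2% of all genes passed as lower with GW3965. PTTG1 (securin), which delays the separation of sister chromatids until anaphase, had 49.8, 40.4, 39.4 and 38.0 CPM at 24 h and 19.6, 19.2, 16.2 and 16.8 CPM at 48 h, a log2 change of -1.22 (SE 0.09). HMMR, a spindle-associated hyaluronan receptor, fell by 1.19 and ANLN, the anillin of the cleavage furrow, fell by 1.14 on the log2 scale. None of the 3 differences from DMSO passed the test (adjusted p = 0.461, 0.322 and 0.115, edgeR). Over the list, 11 differences were more negative with GW3965, 1 was more positive and 24 did not pass.

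In DNA replication 28 of 37 genes fell with GW3965 and none rose, with a median log2 change of -0.55, against 32 that fell in DMSO with a median of -0.81. Of the 37 differences between the treatments, 7 were more positive with GW3965, 3 were more negative and 27 did not pass. Without GW3965 24 h replicate 1, 7 were more positive and 1 more negative. UHRF1, which carries DNA methylation through replication, had 101, 129, 148 and 131 CPM at 24 h and 62.3, 67.3, 54.1 and 67.1 CPM at 48 h, a log2 change of -1.02 (SE 0.16) that was smaller than that of -1.88 in DMSO (difference 0.86, adjusted p = 0.00309, edgeR). RRM2, the regulated subunit of ribonucleotide reductase, fell by 0.94 with GW3965 and by 0.83 with DMSO. The share of counts in replication-dependent histone genes, whose transcripts mostly lack a poly(A) tail, was 0.00253% to 0.00318% at 24 h and 0.00382% to 0.00454% at 48 h with GW3965. In DMSO this share was 0.00265% to 0.00325% at 24 h and 0.00450% to 0.00538% at 48 h, and its part in these results was not tested. Among cyclins, CDK inhibitors and p53 targets 8 of 27 rose and 9 fell with GW3965, and 8 rose and 11 fell in DMSO. CDKN1A (p21), the inhibitor of CDK2, had 22.3, 24.9, 22.0 and 23.5 CPM at 24 h and 42.5, 34.6, 47.7 and 41.7 CPM at 48 h. Its log2 change of 0.85 (SE 0.08) was smaller than that of 2.49 in DMSO by 1.64, with an adjusted p of the difference of 6.37e-13. In DMSO CDKN1A started lower, with 9.68 to 12.1 CPM at 24 h, and had 60.1 to 66.9 CPM at 48 h. CDKN2A fell by 0.75 with GW3965 and by 0.32 with DMSO, a difference of -0.43 (adjusted p = 0.000101).

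The promoters of HMMR and ANLN are shown because they belong to the largest falls of the list and hold the element of late cell cycle genes in 2 adjoining copies. That element, the cell cycle genes homology region, was searched as TTTGAA and the CCAAT box as CCAAT, on both strands, in the 250 bases before the start. TTTGAA was found in 18 of the 30 mitosis promoters that the RefSeq table holds and in 13.6% of all 27305. CCAAT was found in 25 of the 30 (83.3%) and in 33.0% of all. Both kinds of match are in capitals and may overlap. ANLN has no CCAAT in this window. The regions are chr5:163460382-163460631 for HMMR and chr7:36389612-36389861 for ANLN, both on the plus strand of GRCh38.p14.
HMMR: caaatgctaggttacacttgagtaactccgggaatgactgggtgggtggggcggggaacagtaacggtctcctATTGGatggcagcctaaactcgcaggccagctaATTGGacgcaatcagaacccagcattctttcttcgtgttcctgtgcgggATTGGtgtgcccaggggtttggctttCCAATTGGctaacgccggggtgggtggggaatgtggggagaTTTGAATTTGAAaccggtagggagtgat
ANLN: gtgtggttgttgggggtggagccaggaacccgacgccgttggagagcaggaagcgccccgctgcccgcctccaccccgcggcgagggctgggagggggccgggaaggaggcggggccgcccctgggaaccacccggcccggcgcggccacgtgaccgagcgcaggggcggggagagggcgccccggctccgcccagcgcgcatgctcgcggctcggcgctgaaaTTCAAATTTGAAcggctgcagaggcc

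Ribosome biogenesis genes fell with GW3965 and went both ways in DMSO. With GW3965 31 of 34 genes fell and none rose, with a median log2 change of -0.52. In DMSO 13 fell and 7 rose, with a median of -0.02, and 22 of the differences were more negative with GW3965 and 1 more positive. LYAR, a nucleolar factor for ribosomal RNA processing, had 36.4, 30.3, 26.8 and 28.9 CPM at 24 h and 14.2, 11.3, 12.2 and 13.2 CPM at 48 h with GW3965. In DMSO it had 25.3 to 31.2 CPM at 24 h and 22.6 to 28.7 CPM at 48 h, and the difference of the log2 changes was -1.11 (SE 0.13, adjusted p = 7.62e-08, edgeR). PNO1, an assembly factor of the small subunit, fell by 0.83 with GW3965 (adjusted p = 4.55e-08), and its log2 change in DMSO was 0.13 (adjusted p = 0.267). MYC, which drives this group in many cell types, had 167, 194, 208 and 198 CPM at 24 h and 144, 155, 148 and 157 CPM at 48 h with GW3965, a log2 change of -0.35 (SE 0.09). In DMSO MYC rose from 180 to 207 CPM at 24 h to 309 to 343 CPM at 48 h, and the changes differed by -1.09 (adjusted p = 2.66e-08). Without GW3965 24 h replicate 1, 28 ribosome biogenesis genes fell.

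**Figure D4:**
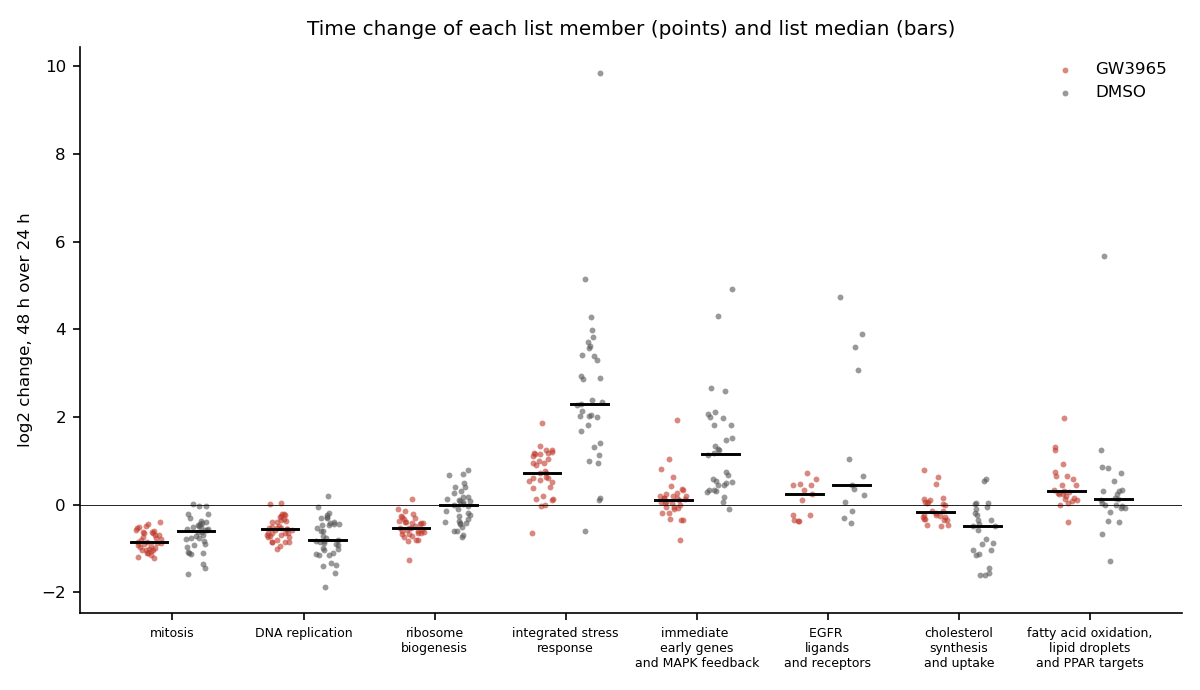
Log2 change from 24 h to 48 h of each tested member of 8 gene lists with GW3965 (red) and DMSO (grey), with bars at the list medians. The median of the integrated stress response is 0.72 with GW3965 and 2.29 with DMSO, and that of ribosome biogenesis -0.52 and -0.02.

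The integrated stress response rose under both treatments and by much less with GW3965. This programme, run by the transcription factor ATF4 when translation is checked through eIF2α, raises amino acid synthesis and transport. Of 33 genes tested, 26 rose and 1 fell with GW3965, with a median log2 change of 0.72, against a background of 16.2% of all genes that passed as higher. In DMSO 30 rose and 1 fell, with a median of 2.29, and 29 of the 33 differences were more negative with GW3965 and none more positive. CHAC1, which degrades glutathione, had 21.9, 28.5, 29.1 and 31.4 CPM at 24 h and 73.3, 52.5, 74.6 and 62.5 CPM at 48 h with GW3965. In DMSO it went from 3.99 to 5.22 CPM at 24 h to 153 to 176 CPM at 48 h, and the log2 changes of 1.25 and 5.13 differed by -3.89 (SE 0.15, adjusted p = 9.81e-19, edgeR). The GW3965 level at 24 h was thus above, and that at 48 h below, all 4 DMSO libraries of the same time.

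PCK2, the mitochondrial phosphoenolpyruvate carboxykinase, had 39.6, 48.0, 54.7 and 57.8 CPM at 24 h and 126, 100, 163 and 117 CPM at 48 h with GW3965, a log2 change of 1.34 (SE 0.12), against 3.41 in DMSO. SLC6A9, a glycine transporter outside the list, rose by a log2 change of 2.05 with GW3965 and 5.97 with DMSO, and GDF15, a secreted stress hormone, by 1.5 and 4.10. The one member that fell was ATF5, by 0.66 with GW3965 and by 0.60 with DMSO. The promoter of CHAC1 is shown as an example with a C/EBP-ATF response element, searched as TGATGNAA on both strands. It was found in 4 of the 26 promoters of the list that the table holds (15.4%) and in 3.19% of all. The match is in capitals, on the opposite strand, and begins 209 bases before the start. The region is chr15:40953221-40953470 on the plus strand of GRCh38.p14.
CHAC1: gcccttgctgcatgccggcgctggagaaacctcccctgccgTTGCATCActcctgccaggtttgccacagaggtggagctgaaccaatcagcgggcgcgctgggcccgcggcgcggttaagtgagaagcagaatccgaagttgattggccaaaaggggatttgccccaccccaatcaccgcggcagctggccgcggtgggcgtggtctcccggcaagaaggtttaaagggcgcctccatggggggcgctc

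Immediate early genes and AP1 subunits rose widely in DMSO, with median log2 changes of 1.16 and 1.4, and the medians with GW3965 were 0.11 and 0.37. Of 32 immediate early genes and feedback regulators of MAPK signalling, 6 rose and 3 fell with GW3965, the former close to the share over all genes. In DMSO 26 rose and none fell, and 22 of the differences were more negative with GW3965 and none more positive. Without GW3965 24 h replicate 1 the numbers with GW3965 were 4 and 5. EGR1, a zinc finger factor induced within minutes of growth factor stimulation, had 53.4, 79.0, 95 and 86.8 CPM at 24 h and 142, 117, 166 and 124 CPM at 48 h with GW3965. In DMSO it went from 44.3 to 56.4 CPM at 24 h to 816 to 1127 CPM at 48 h, and the log2 changes of 0.80 and 4.31 differed by -3.50 (SE 0.25, adjusted p = 1.6e-12, edgeR). DUSP2, a phosphatase of ERK, fell by 0.81 with GW3965 and did not pass in DMSO, where its log2 change was 0.17 (adjusted p = 0.22), and the difference was -0.98 (adjusted p = 2.27e-05).

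Of 12 AP1 subunits 6 rose and 1 fell with GW3965, against 11 that rose in DMSO, and 9 of the differences were more negative with GW3965 and 1 more positive. ATF3, a stress-induced subunit, had 7.39, 8.65, 6.51 and 7.38 CPM at 24 h and 15.8, 13.8, 18.6 and 14.3 CPM at 48 h with GW3965, a log2 change of 1.07 (SE 0.12). In DMSO ATF3 rose from 3.16 to 3.80 CPM at 24 h to 129 to 143 CPM at 48 h, and the difference was -4.24 (SE 0.17, adjusted p = 1.97e-18, edgeR). FOSL1, a subunit linked to sustained ERK signalling, moved in opposite directions. It had 25.8, 27.2, 26.1 and 26.5 CPM at 24 h and 12.8, 13.1, 13.6 and 14.4 CPM at 48 h with GW3965, a log2 change of -0.97 (SE 0.08), and rose in DMSO from 21 to 26.3 CPM to 64.7 to 77.0 CPM, a log2 change of 1.53 (SE 0.08).

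FOS rose by a log2 change of 0.47 with GW3965 and of 2.25 with DMSO. JUND had 86.2, 134, 140 and 141 CPM at 24 h and 173, 151, 158 and 161 CPM at 48 h with GW3965. Its log2 change of 0.36 (SE 0.11, adjusted p = 0.00938, edgeR) lay at the threshold, and without 24 h replicate 1 it was 0.21 and did not pass (adjusted p = 0.063). JUND also did not pass when any one of the other GW3965 libraries except 24 h replicates 3 and 4 was left out. BATF2, an interferon-inducible subunit, had 0.787, 1.31, 1.58 and 1.29 CPM at 24 h and 5.27, 4.20, 4.16 and 5.30 CPM at 48 h, a log2 change of 1.94 (SE 0.23), with -0.39 in DMSO and a difference of 2.33 (adjusted p = 9.33e-07). In DMSO BATF2 started higher, with 2.92 to 4.07 CPM at 24 h, and had 1.98 to 3.13 CPM at 48 h.

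HBEGF, AREG and EREG, ligands of the EGF receptor, which stimulates growth of intestinal epithelium, rose steeply in DMSO and changed by under 2-fold with GW3965. HBEGF had 8.83, 7.63, 10.0 and 8.68 CPM at 24 h and 16.5, 10.7, 16.6 and 14.4 CPM at 48 h with GW3965, a log2 change of 0.73 (SE 0.12), and had means of 4.05 CPM at 24 h and 107 CPM (SD 8.33) at 48 h in DMSO. AREG, whose near-identical copy could share its reads, had 24.0, 21.2, 20.5 and 19.2 CPM at 24 h and 17.3, 13.5, 20.3 and 15.8 CPM at 48 h, and its change of -0.34 did not pass the test (adjusted p = 0.0144, edgeR). In DMSO it went from 19.4 to 22.4 CPM to 232 to 266 CPM. EREG had 52.3, 49.9, 44.8 and 43.7 CPM at 24 h and 41.9, 31.2, 38.2 and 36.4 CPM at 48 h with GW3965, a log2 change of -0.37 (adjusted p = 0.00223) that did not pass without 24 h replicate 1 (adjusted p = 0.012) or without 48 h replicate 2 (adjusted p = 0.013). The differences from DMSO were -4.00 for HBEGF, -3.93 for AREG and -3.44 for EREG on the log2 scale (adjusted p = 2.35e-17, 1.83e-18 and 9.81e-19). At 24 h the GW3965 and DMSO libraries overlapped for AREG and EREG, and at 48 h they did not overlap for any of the 3 ligands. The ligand TGFA had 50.7 to 57.3 CPM at 24 h and 44.5 to 46.2 CPM at 48 h with GW3965, a log2 change of -0.24 that did not pass under library size scaling, without a filter on low counts or without 24 h replicate 1 or 2 or 48 h replicate 1, 3 or 4. Its change of 0.22 in DMSO did not pass the test (adjusted p = 0.0118). The receptor ERBB2 rose with GW3965, from 182, 234, 284 and 268 CPM to 315, 333, 351 and 324 CPM, a log2 change of 0.45, with -0.32 in DMSO. Of the 13 ligands and receptors tested, 4 rose and 2 fell with GW3965, 4 and 0 without 24 h replicate 1, and 7 rose in DMSO.

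**Figure D5:**
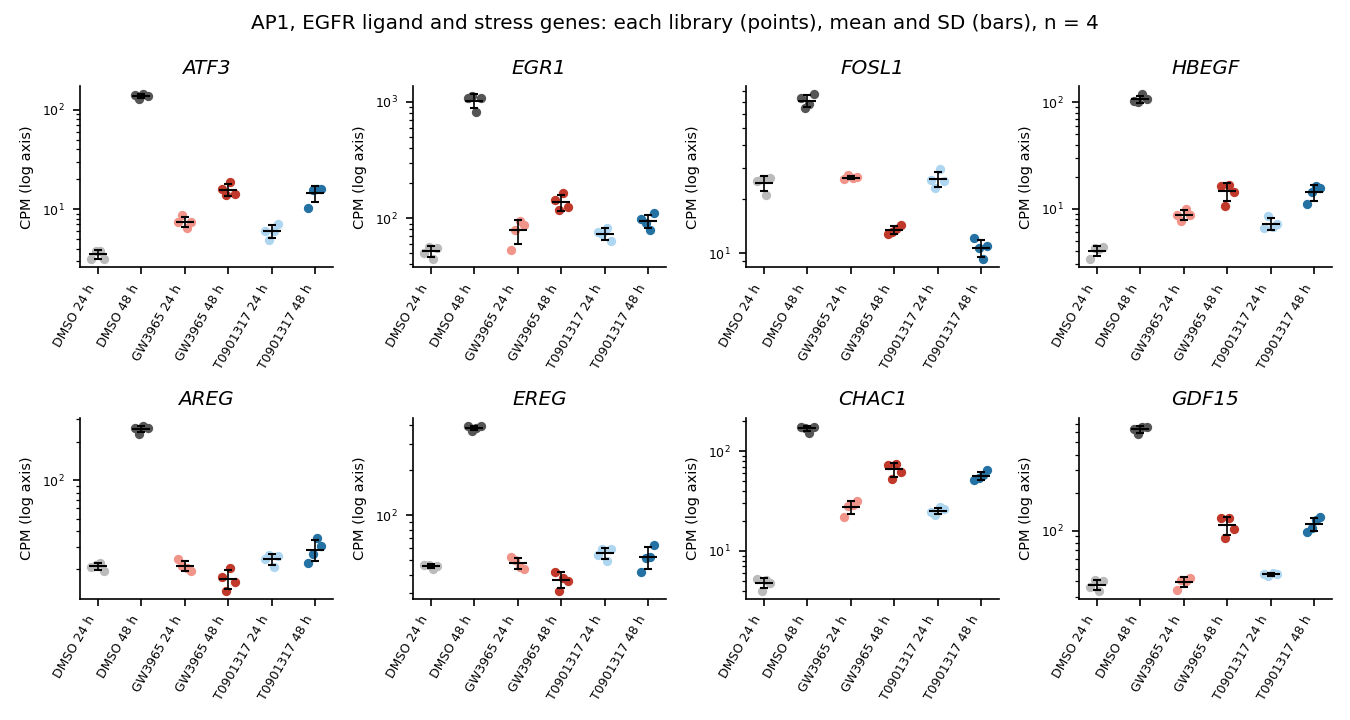
CPM on a log axis in each library (points), with mean and SD of 4, for 8 AP1, EGF receptor ligand and stress genes in DMSO, GW3965 and T0901317 at 24 h and 48 h. AREG lies at 13.5 to 24.0 CPM in the 8 GW3965 libraries and at 232 to 266 CPM in the 48 h DMSO libraries.

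Over all genes, the change from 24 h to 48 h was called more positive with GW3965 than with DMSO in 538 genes (2.32%) and more negative in 549 (2.37%), and 9.96% and 11.7% passed the test. These comparisons share the GW3965 and DMSO libraries with the time changes themselves, so each treatment's own values are given side by side. In the 549 genes the median log2 change was 0.13 with GW3965, 1.55 with DMSO, 0.19 with T0901317 and 1.73 with rosiglitazone. In the 538 genes it was 0.51 with GW3965, -0.86 with DMSO, 0.24 with T0901317 and -0.91 with rosiglitazone. Among the well measured genes, the 5 largest negative differences were those of G0S2, an inhibitor of lipolysis, with -4.73, followed by ATF3, HBEGF, SLC6A9 with -3.92 and CHAC1. AREG, with -3.93, was outside these limits because its GW3965 groups overlapped, and FGF21, a stress-induced hormone with -8.0, because of its low level. G0S2 had 1.21 to 1.70 CPM at 24 h and 2.48 to 3.43 CPM at 48 h with GW3965, and 0.368 to 0.870 CPM and 30.3 to 39.7 CPM in DMSO. The positive differences after ANGPTL4 were those of TMEM37 (2.39), BATF2, ABCC2 (2.17), an exporter of conjugates, and NUAK2 (2.01), an AMPK-related kinase. TMEM37, ABCC2 and NUAK2 rose with GW3965 and fell in DMSO. ABCC2 was low in DMSO, with means of 0.912 CPM at 24 h and 0.384 CPM at 48 h.

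T0901317, another synthetic LXR agonist of a different structure, was compared with GW3965 at the same dose and times. The change from 24 h to 48 h differed between the agonists in 2 genes at least 2-fold (0.00864% of those tested) and in 15 genes (0.0648%) at an adjusted p under 0.01 in edgeR, with 1 called by DESeq2 and 4233 at an unadjusted p under 0.05. DESeq2, without the requirement on size, passed 111 genes as more positive and 89 as more negative with GW3965. In DESeq2 12562 of the 23140 genes had no adjusted p here, so its counts and those of edgeR were adjusted over unlike sets of genes. The median size of the difference over all genes, 0.20 on the log2 scale, compares with 0.35 for the difference from DMSO. For ABCA1 the difference was -0.25 (95% interval -0.51 to 0.00), for SCD -0.15 (-0.29 to -0.01), for PLTP 0.08 (-0.30 to 0.46), for CHAC1 0.08 (-0.21 to 0.38) and for ATF3 -0.19 (-0.54 to 0.17), none of which passed the test over all genes. Such a p does not show that the agonists act alike, and for SREBF1 the interval ran from 0.09 to 0.80. Among others, it ran from 0.26 to 2.26 for ANGPTL4, 0.33 to 1.51 for ABCC2 and 0.09 to 0.98 for NUAK2. For AREG it ran from -0.92 to -0.26 and for PDK4 from -0.77 to -0.17, and none of these passed. For the 5 largest positive differences from DMSO, the log2 changes with T0901317 were 0.05 (ANGPTL4), 0.70 (TMEM37), 1.26 (BATF2), 0.02 (ABCC2) and 0.07 (NUAK2). With GW3965 they were 1.31, 0.97, 1.94, 0.94 and 0.61. DHRS3 was the one gene of the 88 given with values here that passed. It had 29.5, 32.7, 38.0 and 31.1 CPM at 24 h and 73.8, 75.3, 81.3 and 77.9 CPM at 48 h with T0901317, and its log2 change with GW3965 was larger by 0.92 (95% interval 0.64 to 1.20, adjusted p = 0.000916, edgeR). The 2 genes called, named after their values were seen, were low throughout. NR1H4, the bile acid receptor, had no read in the 4 T0901317 libraries of 24 h and 0.121 to 0.501 CPM in the other libraries of the 2 agonists, and RP11-538P18.2 had 0.217 to 0.765 CPM in all of them.

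Rosiglitazone activates a receptor other than LXR, and its time change differed from that of GW3965 in 2075 genes (8.97%). With rosiglitazone ATF3 rose by a log2 change of 4.86, EGR1 by 4.35, AREG by 4.04 and CHAC1 by 6.16, values on the DMSO side of those with GW3965.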

How the data were processed

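The RNA data are 32 libraries of HT29 cells, for which the authors deposited whole-number read counts per gene in one table for 24 h and one for 48 h. The submitters' processing notes name TopHat, Cufflinks and the hg19 build. Neither the counting program nor the use of strand is stated in the labels or methods used here. Columns headed ROSA were read as rosiglitazone. Peak lists were not used here.

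Both tables were joined by gene ID. Genes were filtered (filterByExpr) and scaled (TMM), and 1 group-means model over all 32 libraries was fitted by quasi-likelihood in edgeR 4.0.16 (R 4.3.3). DESeq2 1.42.0 was an alternative. Values are CPM with TMM factors, with n = 4 per group, SE is that of the log2 change, and residual degrees of freedom were 24. On simulated data with the GW3965 time change as the contrast, 97 of 100 genes changed by 1.5 and 100 of 100 changed by 2.5 on the log2 scale were recovered, with 0 false calls among 22736 genes. For the difference between GW3965 and DMSO these were 89 and 100 of 100, with 2 false calls. The changed genes were drawn from those with a mean above 1 CPM. All libraries were simulated from 1 common mean profile, and only the 48 h GW3965 libraries were changed. These figures therefore do not cover genes of lower counts or a difference between the count tables.

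Named genes were the 10 largest increases and decreases with GW3965 and the 5 largest differences from DMSO in each direction. These were called, known genes with a mean log2 CPM of at least 1 and groups not overlapping, both over the GW3965 libraries. Up to 3 rises and 3 falls per list and 13 LXR and AP1 pathway genes were also named. Of all named genes, 88 are given with values. Results for some other genes are not reported here. Members and lists were chosen with earlier results of these data known. Promoters and motifs came from the RefSeq table of GRCh38.p14. Of the 51838 gene IDs, 44823 matched the name table.

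Replicate numbers were not treated as pairs. Counts range from 36537256 to 51332656 per GW3965 library, and intervals cover the spread between libraries.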

Additional observations from a re-analysis of the deposited data

Results flagged for a closer look

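The change from 24 h to 48 h differed between GW3965 and DMSO in 61 of the 88 genes given with values (adjusted p under 0.01 for the difference itself, edgeR over all genes), as log2 change with GW3965 minus log2 change with DMSO. The genes were named in part for this difference, so their number is a description. The 25 differences that were more positive with GW3965 included ANGPTL4 2.59, TMEM37 2.39, BATF2 2.33, ABCC2 2.17, NUAK2 2.01, PDIA2 1.78, SI 1.5 and TRPM5 1.24. Next in size were ACSS2 1.20, LTBP1 1.20, ABCA1 1.16, INSIG1 1.14, PLTP 1.06, PPARGC1B 0.98, NOXA1 0.97, OAS1 0.87 and UHRF1 0.86. The remaining ones were PDK4 0.82, ERBB2 0.77, TM7SF2 0.75, ELOVL6 0.73, CEACAM6 0.66, SCD 0.56, NR1H3 0.55 and LDHA 0.38. The 36 differences that were more negative with GW3965 included G0S2 -4.73, ATF3 -4.24, HBEGF -4.00, AREG -3.93, SLC6A9 -3.92, CHAC1 -3.89, EGR1 -3.50, EREG -3.44 and GDF15 -2.60. Next in size were FOSL1 -2.5, IFIT1 -2.19, CXCL8 -2.17, PCK2 -2.07, VEGFA -2.06, DDX60 -1.97, LRRC31 -1.87, OASL -1.81 and FOS -1.77. They were followed by CDKN1A -1.64, ABCG1 -1.29, LYAR -1.11, MYC -1.09, HK2 -1.03, DUSP2 -0.98, PNO1 -0.96, DLEU2 -0.94 and JUND -0.90. The remaining ones were CYP2B6 -0.88, PPARD -0.77, LCN2 -0.70, CAV1 -0.64, IDH3A -0.61, CYCS -0.54, TGFA -0.46, CDKN2A -0.43 and NR1H2 -0.36. 

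In 12 of 176 groups of 4 GW3965 libraries tested for these genes, 1 library lay apart from the other 3 by Dixon's criterion, and chance alone flags about 1 group in 20. In 24 h replicate 1 this was FJX1 at 5.73 CPM (group median 9.43) and JUND at 86.2 CPM (group median 137). In 24 h replicate 4 this was IFIT1 at 1.27 CPM (group median 1.77). In 48 h replicate 2 this was FJX1 at 3.77 CPM (group median 3.31) and PDK4 at 18.9 CPM (group median 22.5). In 48 h replicate 3 this was TMEM37 at 3.28 CPM (group median 3.99), G0S2 at 3.43 CPM (group median 2.6), ELOVL6 at 41.5 CPM (group median 50.1), FABP1 at 15 CPM (group median 12.3) and PRDX1 at 135 CPM (group median 156). In 48 h replicate 4 this was SSPOP at 3.47 CPM (group median 6.24) and HK2 at 36 CPM (group median 33.1).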

How the results depend on the processing

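Results are those of separate libraries of 1 cell line, and effects of time cannot be told apart from differences between the 2 count tables. Genes with under about 1 CPM carry wide errors at this depth. With a fold limit of 1.5 in place of 2, the genes called numbered 2046 higher and 1181 lower with GW3965, 2511 and 2220 with DMSO, 1459 more positive and 1525 more negative in the difference from DMSO, 10 in that from T0901317 and 4484 in that from rosiglitazone. A test against a 1.5-fold change (glmTreat) called 469 genes higher and 161 lower with GW3965, 233 more positive and 427 more negative in the difference from DMSO and 0 in that from T0901317. That last count was 1 with no filter on low counts, 0 with only the groups of the comparison in the fit, and 1 with DESeq2. Leaving out 1 library gave 735 to 928 higher and 180 to 258 lower genes with GW3965, 1106 to 1197 and 708 to 837 with DMSO, 456 to 598 more positive and 521 to 561 more negative against DMSO, 0 to 3 against T0901317 and 1718 to 2538 against rosiglitazone. Other scalings and filters kept the remaining counts within 1.5 times.

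For the genes given with values, 609 of 616 GW3965 changes under the other settings and 602 of 616 differences from DMSO kept their direction and their side of the threshold. With 1 library left out, the change of RXRA with GW3965 ran from -0.197 to 0.0355 and turned without 24 h replicate 3, and the difference for DHRS3 ran from -0.176 to 0.0551 and turned without GW3965 24 h replicate 4. The difference for RXRB ran from -0.0642 to 0.0102 and turned without GW3965 24 h replicate 3 or 48 h replicate 4, and none of the 3 passed the test. Counts of list members under other scalings and without GW3965 24 h replicate 1 were chosen after seeing the data, and no scaling moved the median over all genes beyond 0.04 on the log2 scale.

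Same-numbered GW3965 libraries of 24 h and 48 h had correlations of their deviations of -0.07, 0.00, 0.21 and -0.22, so the numbers were not read as pairs. With the replicate number as a block, 835 genes were higher and 216 lower with GW3965, 1165 and 785 with DMSO, 519 more positive and 551 more negative in the difference from DMSO, 1 in that from T0901317 and 2068 in that from rosiglitazone.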

Other observations

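Genes of a mature intestinal epithelium rose with GW3965 in 14 of 28 cases and 1 fell (12 and 2 without GW3965 24 h replicate 1), against 11 and 5 in DMSO. SI, the sucrase-isomaltase of the brush border, had 1.27, 1.18, 1.31 and 1.27 CPM at 24 h and 3.99, 4.17, 5.60 and 5.36 CPM at 48 h with GW3965, a log2 change of 1.93 (SE 0.22), against 0.43 in DMSO. CEACAM6, an adhesion protein raised in colorectal tumours, was the member that fell, from a mean of 57.4 CPM to one of 37.7 CPM, a log2 change of -0.61, beside -1.27 in DMSO. Among goblet and other secretory cell genes 13 of 33 rose and 3 fell with GW3965, and 6 rose and 5 fell in DMSO. TRPM5, the cation channel of tuft cells, had 1.51, 2.08, 2.17 and 1.99 CPM at 24 h and 8.39, 8.70, 7.72 and 5.54 CPM at 48 h, a log2 change of 1.97 (SE 0.17), against 0.73 in DMSO. REG4, a secreted lectin, fell by 0.93 with GW3965 and by 0.73 with DMSO. NOX1, the NADPH oxidase of colon epithelium, and its activator NOXA1 rose by log2 changes of 1.63 and 1.79 with GW3965 and of 1.87 and 0.82 with DMSO. In their list of antioxidant enzymes and NADPH oxidases 9 of 31 rose and 9 fell with GW3965 and 7 rose and 10 fell in DMSO, and PRDX1, a peroxiredoxin, fell by 0.59 and by 0.85.

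Of 38 interferon response genes 6 rose and 5 fell with GW3965, close to the shares of all genes (16.2% and 15.2%), and 10 rose and 5 fell in DMSO. OAS1, an RNA sensor, had 11.5 to 13.9 CPM at 24 h and 21.3 to 24.7 CPM at 48 h, while its relative OASL had 5.03 to 6.06 CPM and 2.38 to 3.32 CPM. IFIT1 had 1.27 to 1.82 CPM at 24 h and 0.390 to 0.729 CPM at 48 h with GW3965. In DMSO the log2 changes of OAS1, OASL and IFIT1 were -0.01, 0.81 and 0.57. For DDX60 and IFIT1 the log2 changes with T0901317 were -0.38 and -0.27, and the differences of -1.37 and -1.36 between the agonists did not pass over all genes (adjusted p = 0.0433 and 0.0629, edgeR).

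Glycolysis and hypoxia genes rose in 8 of 36 cases and fell in 11 with GW3965, and 10 rose and 18 fell in DMSO. VEGFA rose by a log2 change of 0.88 with GW3965 and of 2.94 with DMSO. LDHA fell by 0.87 and by 1.25. HK2, the first enzyme of glycolysis, fell by 0.71 with GW3965, from 48.6 to 59.5 CPM to 32.7 to 35.9 CPM, and rose in DMSO by 0.32. Oxidative phosphorylation and tricarboxylic acid cycle genes fell in 15 of 42 cases and 1 rose (13 and 2 without GW3965 24 h replicate 1), and 19 fell and 1 rose in DMSO. IDH3A and CYCS fell by 0.82 and 0.79 with GW3965, and their log2 changes in DMSO were -0.21 and -0.26.

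YAP target and cell density genes fell in 7 of 18 cases and rose in 2 (7 and 1 without GW3965 24 h replicate 1), against 5 and 9 in DMSO, and 10 differences were more negative with GW3965. Chemokine and NFKB feedback genes rose in 7 of 25 cases and fell in 3, and 12 rose and none fell in DMSO. LCN2, an iron-binding defence protein, rose from 28.4 to 33.4 CPM to 94.9 to 113 CPM, and CXCL8 fell from 1.70 to 3.12 CPM to 0.886 to 1.5 CPM. The fall of CXCL8 did not pass without GW3965 24 h replicate 2 or 4 or 48 h replicate 1, or with only the GW3965 libraries in the fit. In DMSO LCN2 and CXCL8 rose by log2 changes of 2.48 and 1.4. BMP, TGF-beta and SMAD genes rose in 3 of 19 cases and fell in 3 (3 and 5 without GW3965 24 h replicate 1), near the shares of all genes, and 10 rose and 4 fell in DMSO. Of the 19 differences between the treatments, 9 were more negative with GW3965 and 2 more positive, with a median of -0.58. LTBP1, which tethers latent TGF-beta, was among the 2 that were more positive. It rose by a log2 change of 1.17 with GW3965 and changed by -0.03 with DMSO. Of Wnt targets and antagonists 1 of 20 rose and 2 fell with GW3965, and 6 rose and 7 fell in DMSO.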
